A study of Mus musculus with 8 samples.

Results

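The synaptic vesicle glycoproteins Sv2a, Sv2b and Sv2c and 7 further proteins of vesicle release, Syt1, Syp, Syn1, Syn2, Vamp2, Snap25 and Stx1a, were examined in brain tissue of mice lacking Tet1, an enzyme that oxidises 5-methylcytosine in DNA. The 10 genes were found by their symbols on the array, which carries 13 probes for them among 39429 probes in all, 3 for Sv2c, 2 for Syn2 and 1 for each of the others. All 10 were among the 16359 genes tested. The set was picked by the KO over WT ratio of Sv2c, which was high, so the Sv2c values of that comparison are a description with no test. The other 9 were added for what their proteins do.

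The samples were KO cortex, WT cortex, KO hippocampus and WT hippocampus, 2 of each, from naive Tet1 KO and wild-type mice that share a mixed 129 and C57BL6 background. The sources give no age, no deleted part of Tet1 and no word on whether replicates are separate animals, so the p-values cover the spread among these samples alone, and that spread may be technical. Total RNA of each KO sample was labelled with Cy5 and hybridised with 1 WT sample labelled with Cy3, giving 4 arrays of 2 channels on 1 slide with no dye swap. Genotype and dye therefore cannot be told apart, and the number of arrays limits every value.

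The Tet1 probe gave log2 ratios of KO over WT of -0.18 and -0.20 in cortex and -0.23 and -0.10 in hippocampus. It was below 0 on all 4 arrays, and its mean of -0.18 ± 0.05 (SE) did not pass the test (limma adjusted p = 0.0804). Whether the probe lies in the deleted part was not given, so it does not check the labels. The tissue labels were borne out by markers: of 5 cortical markers, 4 were higher in cortex in KO, and all 5 hippocampal markers were lower there. In the KO channel 66.6% to 67.2% of spots stood well above background, and in the WT channel 49.7% to 51.7%, so weak signals were measured better in KO.

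A synaptic vesicle stores transmitter and fuses with the presynaptic membrane when calcium enters. Vamp2 on the vesicle pairs with Snap25 and Stx1a on the plasma membrane to form the SNARE complex that drives fusion, Syt1 senses the calcium, and synapsins hold vesicles in reserve. The Sv2 proteins are vesicle membrane glycoproteins that regulate release. Sv2a, found across the brain, is the binding site of the antiseizure drug levetiracetam, and Sv2c, the most restricted of them, is best known from the basal ganglia.

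The probes on which the results turn are shown as the first 30 of their 60 bases, 5′ to 3′, as the scanner files give them, in lower case with no base singled out. The Sv2c probes come first because they disagree with one another, then the Vamp2 probe, then the Stx1a and Syn2 probes, which differed between tissues. All positions are of the mouse build mm9. The first Sv2c probe lies at chr13:96729454-96729513 and the second at chr13:96729701-96729761. The third lies at chr13:96745986-96746045, and all 3 are on the minus strand. The Vamp2 probe is at chr11:68905527-68905586, the Stx1a probe at chr5:135526477-135526536, and the Syn2 probes at chr6:115226390-115226449 and chr6:115231474-115231533, all on the plus strand. No mm9 gene annotation was used here, so exon and UTR are not given. The accessions of 12 of the 13 probes carry the same symbol in RefSeq, and that of the second Sv2c probe was not matched.
Sv2c probe 1: ctgtttctcatccctgggaaacaaatctgt
Sv2c probe 2: tctttgattaacataaaccattaatccact
Sv2c probe 3: aatccatgatgataggcatgctgtgcttgt
Vamp2: agtgtgagagagaaagcaagctatttcctt
Stx1a: agcaggccatagtcctaacaggcatggtaa
Syn2 probe 1: acacttttgtcacagtgtagggtttctgtt
Syn2 probe 2: tagtctttaagagctttattctgaagtcat

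Sv2c was brighter in every KO sample than its WT partner at its brightest probe, the first of those shown. The raw signal was 1110 and 1250 in KO cortex, where negative controls of that dye had medians of 79.9 and 80.8. It was 301 and 291 in WT cortex, where the negative controls had 247 and 257. KO thus stood far above the empty signal and WT just above it. In KO hippocampus the raw signal was 488 and 600 (negative controls 79.3 on both arrays), against 282 and 278 in WT hippocampus (negative controls 260 and 263). The probe was well above background in all 4 KO samples and in none of the WT samples, so WT has only a bound. Raw signals of Cy5 and Cy3 are not on one scale. Vamp2, lower in KO after normalisation, had raw signals of 61200 in KO and 31000 in WT on the first cortex array.

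After normalisation the log2 ratio of KO over WT for Sv2c was 2.0 and 2.34 in cortex, and in hippocampus it was 1.62 and 1.82. The means were 2.17 ± 0.24 in cortex and 1.72 ± 0.14 in hippocampus (SD, n = 2 arrays each). Both cortex arrays lay above both hippocampus arrays. Set against the higher of its own WT level and the lowest WT level well above background, KO was at least 4.45-fold higher in cortex. In hippocampus it was at least 2.59-fold higher. Other processing, given below, led to log2 ratios from 0.83 to 4.77 in cortex and from 0.58 to 3.91 in hippocampus. Both bounds thus hold under this processing alone. These bounds compare the dyes as well as the genotypes, and no dyes were swapped. With every local background kept the cortex ratio was 0.83, so its size depends on that step. The authors' deposited table gave 1.60 and 1.76 in cortex and 1.03 and 1.23 in hippocampus.

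**Figure D1:**
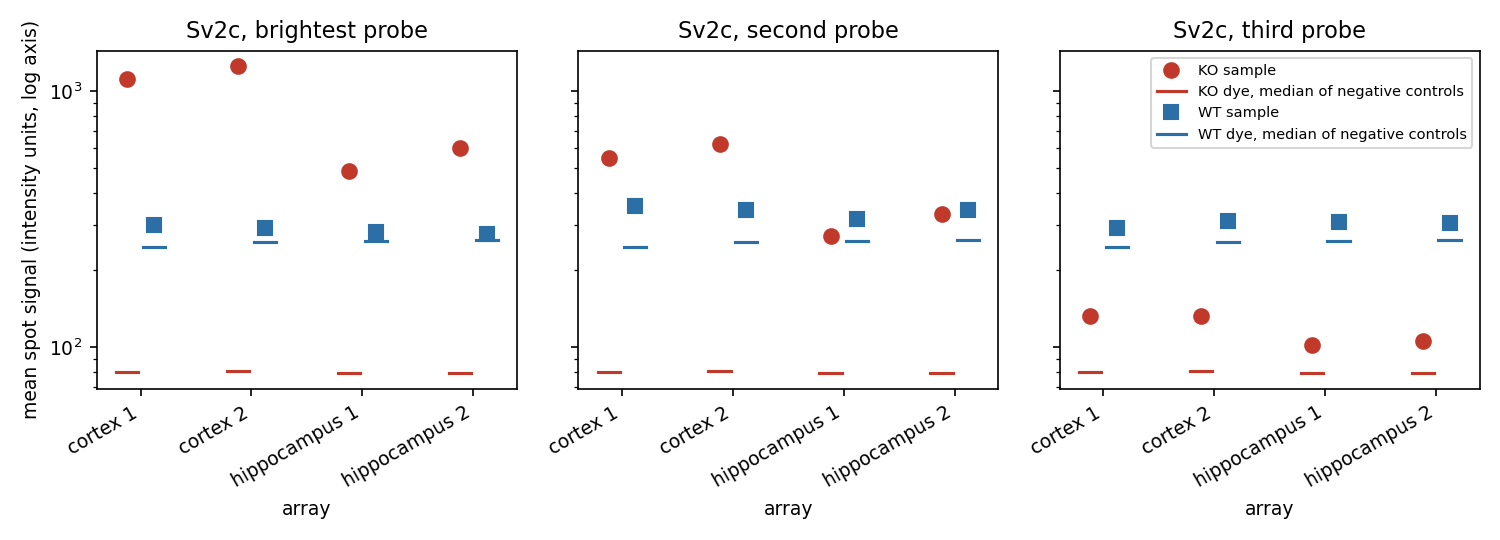
Raw mean spot signal (intensity units, log axis) of the 3 Sv2c probes on each array, KO as circles and WT as squares, with the median of the negative controls of the same dye as a bar. At the brightest probe the KO samples read 488 to 1250 against negative controls near 80, while WT samples read 278 to 301 against 247 to 263.

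The 3 Sv2c probes did not agree. The second probe, 247 bases from the first, gave log2 ratios of 0.67 and 1.02 in cortex and 0.40 and 0.35 in hippocampus. It too was well above background in all 4 KO samples and in no WT sample. Its own WT level set its bounds under this processing, at least 1.80-fold in cortex and at least 1.30-fold in hippocampus. The authors' deposited table gave smaller log2 ratios for it, 0.57 and 0.75 in cortex and 0.30 and 0.27 in hippocampus. The direction at this probe was that of the first, and its size was smaller.

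The third Sv2c probe, 16532 bases away toward the 5′ side of the gene, gave -0.14 and -0.29 in cortex and -0.40 and -0.34 in hippocampus. It was well above background in 3 of 4 KO samples, with raw signals of 132 and 133 in KO cortex and 102 and 106 in KO hippocampus, and in none of the 4 WT samples, so no fold is given for it. Of the full probe sequences, 35.0%, 43.3% and 45.0% of the bases were G or C in the first, the second and the third probe. Averaging all 3 probes gave 0.93 in cortex and 0.58 in hippocampus. The rise of Sv2c was thus measured by the pair of probes that lie together and not by the one that lies apart.

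Within KO, Sv2c was also compared between tissues. Its log2 level at the first probe was 9.66 and 9.85 in KO cortex, against 8.76 and 9.05 in KO hippocampus, and the tissues did not overlap. The difference was 0.85 ± 0.12 (SE, limma adjusted p = 0.00449). Sv2c was picked with these same KO values, and only KO samples brought it past the filter. Its p-values between tissues are thus not free of that choice. The second probe gave 0.73 ± 0.14 (adjusted p = 0.0164 over 26017 probes in limma) and the third 0.14 ± 0.08 (adjusted p = 0.325). With every local background kept, the first probe's difference turned to -0.26 (adjusted p = 0.633), and without cortex replicate 2 it was 0.76 with an adjusted p of 0.0691. In WT both tissues were below the limit for this probe and no fold is given.

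Of the cell type markers, on lists of 3 to 7 tested genes each, 6 passed in KO over WT in the mean of both tissues. In that comparison 11.0% of all genes were called, 7.18% higher and 3.84% lower. None passed among the 7 neuron, 7 striatal, 6 GABA interneuron, 3 cholinergic, 6 choroid plexus, 6 astrocyte, 6 oligodendrocyte and 5 hippocampal markers. The microglial genes C1qa (-0.53 ± 0.05, limma adjusted p = 0.0247), C1qb (-0.50 ± 0.05, adjusted p = 0.0252) and Trem2 (-0.41 ± 0.05, adjusted p = 0.0297) were lower in KO (SE), 3 of 6 on that list. The rest of that list, Aif1 (-0.15), Cx3cr1 (0.05) and Csf1r (-0.05), did not pass. The summed level of that list was 54600 to 54900 in KO cortex, against 61600 to 65200 in WT cortex, and 50800 to 57300 in KO hippocampus, against 54700 to 56800 in WT hippocampus. Cldn5, a tight junction protein of endothelium, was lower by -0.59 ± 0.07 (adjusted p = 0.0278), 1 of 5 on its list. The endothelial sum was 13100 to 14100 in KO cortex, against 16000 to 18500 in WT cortex, and 11200 to 13000 in KO hippocampus, against 16200 to 17900 in WT hippocampus. The thalamic marker Tcf7l2, 1 of 3 on its list, was lower by -0.32 ± 0.05 (adjusted p = 0.0333), with WT cortex not well above background. The cortical marker Rorb, 1 of 5 on its list, was higher by 0.43 ± 0.06 (adjusted p = 0.0302). With any 1 array left out, at most 1 of all genes was called in that comparison. The part of these cells in the ratios of the vesicle genes was not tested.

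No striatal or choroid plexus marker passed in KO over WT. In cortex all 7 striatal markers, among them Drd1a, Drd2 and Penk, had mean ratios below 0, with a median of -0.35. Their summed level was 134000 to 139000 in KO cortex, against 156000 to 189000 in WT cortex. In hippocampus 5 of 7 were below 0, with sums of 19000 to 27900 in KO and 23400 to 27500 in WT, where 2 of the 7 were not well above background. The striatal sum was lower in KO than in WT cortex on both arrays, and Sv2c was higher in KO there. The part of striatal cells in the Sv2c ratio was not tested. Between tissues all 7 were higher in cortex than in hippocampus in KO, by a median of 2.60, and so was Sv2c, as above. The part of these cells in that tissue difference was not tested.

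Choroid plexus markers varied from array to array, with median ratios over 6 markers of 0.50 and 2.20 in cortex and 0.13 and -2.92 in hippocampus. Their summed level was 113000 to 183000 in KO cortex, against 7220 to 93500 in WT cortex, and 5120 to 20000 in KO hippocampus, against 4200 to 266000 in WT hippocampus. All 6 were well above background in KO cortex and KO hippocampus. In WT, Aqp1 was well above background on 1 of 2 arrays in each tissue, and the other markers on both. On the same arrays the Sv2c ratio was 2.0 and 2.34 in cortex and 1.62 and 1.82 in hippocampus. The array with the higher choroid plexus ratio thus had the higher Sv2c ratio in cortex and the lower one in hippocampus. The part of these cells in the Sv2c ratio was not tested. In tissue samples such as these, fewer cells of a type and less RNA per cell cannot be told apart.

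The other Sv2 genes were bright in every sample and moved little. Sv2a had log2 levels of 13.98 and 13.93 in KO cortex, against 13.60 and 13.67 in WT cortex. In hippocampus it had 13.76 and 13.89 in KO, against 13.68 and 13.60 in WT. KO lay above WT in both tissues without overlap, with ratios of 0.37 and 0.27 in cortex and 0.08 and 0.28 in hippocampus. The mean over both tissues was 0.25 ± 0.06 (SE), with a 95% interval of 0.10 to 0.40, and it did not pass the test (limma adjusted p = 0.0612).

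Sv2b had ratios of 0.02 and -0.15 in cortex and -0.18 and 0.06 in hippocampus. It was on both sides of 0 in each tissue, and its mean of -0.06 ± 0.06 (SE, 95% interval -0.23 to 0.11, limma adjusted p = 0.53) did not pass. Over the 8 channels the level of Sv2a had r = 0.94 with that of Sv2c, and Sv2b had r = -0.08. Sv2c was well above background in no WT channel, and r takes in the KO over WT difference by which Sv2c was picked. Pairs of channels share an array, and all KO channels share a dye, so these are descriptions.

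**Figure D2:**
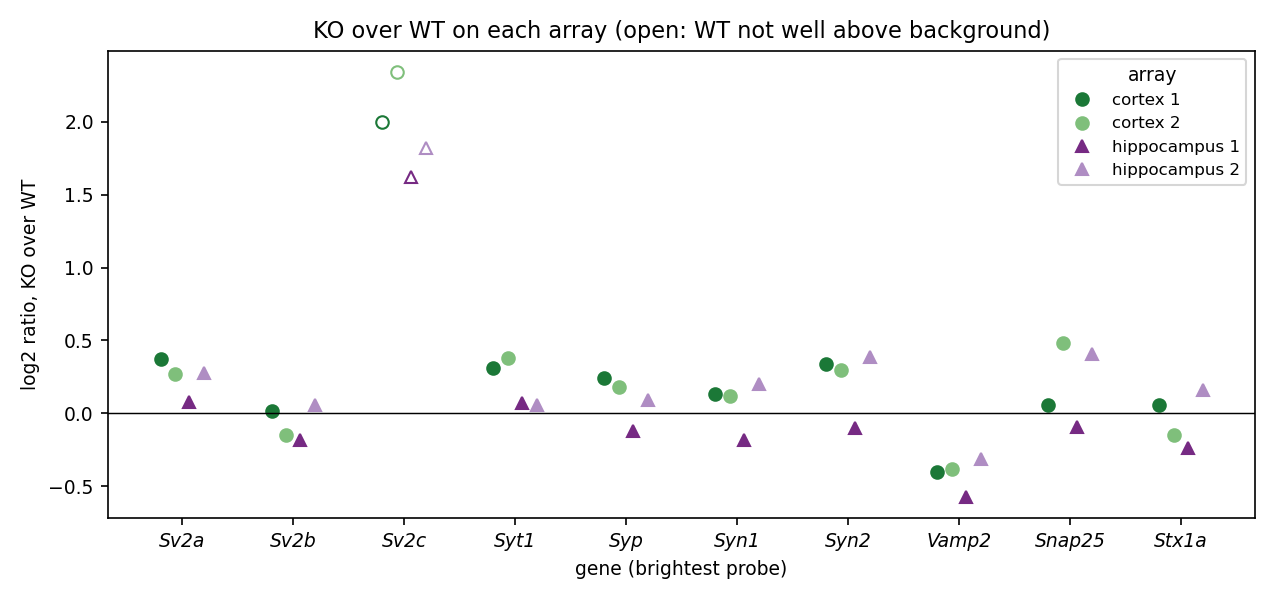
Log2 ratio of KO over WT on each of the 4 arrays for the brightest probe of each gene, with circles for cortex and triangles for hippocampus. Sv2c lies at 1.62 to 2.34, with open symbols because its WT level was not well above background, Vamp2 below 0 on every array at -0.57 to -0.31, and the others within 0.48 of 0.

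Vamp2, the vesicle SNARE cleaved by tetanus toxin, was lower in KO on every array. Its log2 level was 15.10 and 15.07 in KO cortex, against 15.49 and 15.45 in WT cortex. In hippocampus it was 14.84 and 14.57 in KO, against 15.41 and 14.88 in WT. KO was below WT without overlap in both tissues, narrowly so in hippocampus. The ratios were -0.40, -0.38, -0.57 and -0.31, and the mean over both tissues was -0.41 ± 0.06 (SE, 95% interval -0.57 to -0.25), which passed the test (limma adjusted p = 0.0339).

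Vamp2 was the 1 of 9 members called in the mean of both tissues, where 11.0% of all genes were called, 7.18% higher and 3.84% lower. A share of 1 in 9 is near that background. The call was lost when any 1 array was left out (adjusted p = 0.0723 to 0.164), with every local background kept (adjusted p = 0.118) and with the scanner software's processed signals (adjusted p = 0.0694). Under median centring in place of loess the Vamp2 ratio was -0.02 relative to the median of all genes, where the genes at least as bright as the dimmest of the 9 had a median of 0.32. Within single tissues 0 of 9 members passed, in cortex, where 0.0611% of genes were called, and in hippocampus, where 0.0183% were. At an unadjusted p under 0.05, 3 of 9 passed in cortex, 1 of 9 in hippocampus and 3 of 9 in the mean, against 21.2%, 23.8% and 33.9% of all genes. The KO and WT levels did not overlap for 7 of 9 members in cortex and 2 of 9 in hippocampus, against 55.8% and 51.0% of all genes.

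The plasma membrane SNAREs did not pass in KO over WT. Snap25 had ratios of 0.06 and 0.48 in cortex and -0.09 and 0.41 in hippocampus, with a mean of 0.22 ± 0.12 (SE, 95% interval -0.09 to 0.52). The second array of each tissue was the higher one. Stx1a had ratios of 0.06 and -0.15 in cortex and -0.24 and 0.16 in hippocampus, around a mean of -0.04 ± 0.09 (95% interval -0.27 to 0.18). Neither gene kept one sign over the arrays (limma adjusted p = 0.258 for Snap25 and 0.74 for Stx1a).

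Syt1, the calcium sensor of fast release, was above 0 on every array, with ratios of 0.31 and 0.38 in cortex and 0.07 and 0.06 in hippocampus. Its mean was 0.21 ± 0.04 (SE, 95% interval 0.09 to 0.32) and did not pass (limma adjusted p = 0.0549). Its cortex ratio exceeded its hippocampus ratio by 0.28 ± 0.09, with an unadjusted p of 0.0284 and an adjusted p of 1 in limma. Of all genes 0% were called in that difference and 4.52% had an unadjusted p under 0.05, and Syt1 was the 1 of 9 members that did. Besides Syt1, Sv2a was the other member above 0 on all 4 arrays, as were 28.1% of all genes, and Vamp2 the 1 member below 0 on all 4, as were 17.7%.

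Syp, the abundant vesicle membrane protein synaptophysin, had ratios of 0.24 and 0.18 in cortex and -0.12 and 0.09 in hippocampus, with a mean of 0.10 ± 0.06 (SE, limma adjusted p = 0.282). Syn1 had 0.13 and 0.12 in cortex and -0.18 and 0.20 in hippocampus, with a mean of 0.07 ± 0.08 (adjusted p = 0.572). Syn2 at its brighter probe had 0.34 and 0.30 in cortex and -0.10 and 0.39 in hippocampus, with a mean of 0.23 ± 0.09 (adjusted p = 0.158). All 3 were above 0 on 3 of 4 arrays and below 0 on the first hippocampus array. The second Syn2 probe gave 0.28, 0.16, -0.18 and 0.51 on the same arrays, with the same signs.

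The first hippocampus array stood lower for most of these genes. The median ratio of the 9 members was 0.13 and 0.18 in cortex and -0.12 and 0.16 in hippocampus, with 8, 6, 2 and 8 of 9 above 0. The 2570 genes at least as bright as the dimmest of the 9 had medians of -0.02 to 0.01 on the same arrays. General neuron markers, 7 of them tested, had medians of 0.20 and 0.08 in cortex and -0.01 and 0.11 in hippocampus. They too were lowest on the first hippocampus array, so this pattern was not particular to the members. Under median centring 7 of 9 members passed in the mean of both tissues, all higher than the median of all genes, as did 62.5% of all genes in either direction.

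Stx1a and Syn2 differed between cortex and hippocampus. Stx1a, the plasma membrane syntaxin of neurons, had log2 levels of 14.03 and 13.94 in KO cortex, against 12.30 and 12.55 in KO hippocampus. In WT it had 13.97 and 14.08 in cortex, against 12.55 and 12.40 in hippocampus. The tissues were far apart in both genotypes. Cortex over hippocampus was 1.55 ± 0.11 in KO and 1.56 ± 0.11 in WT (SE, limma adjusted p = 0.000337 and 0.000315), and both calls held without each single array.

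Syn2, which sets the reserve pool of vesicles together with Syn1, went the other way. Its log2 level was 15.54 and 15.63 in KO cortex, against 16.02 and 16.11 in KO hippocampus, and 15.20 and 15.33 in WT cortex, against 16.12 and 15.72 in WT hippocampus. Every cortex sample was below every hippocampus sample. The difference was -0.48 ± 0.14 in KO (limma adjusted p = 0.0587) and -0.65 ± 0.14 in WT (adjusted p = 0.0208), so it passed in WT. Without cortex replicate 1 or 2 the adjusted p in WT was 0.187 and 0.141. The second Syn2 probe gave -0.37 ± 0.17 in KO and -0.42 ± 0.17 in WT and did not pass in either (adjusted p = 0.251 and 0.173).

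In KO 2 of 10 members passed between tissues, Stx1a and Sv2c, both higher in cortex, where 15.0% of all genes were called. Sv2c was picked by its KO over WT ratio, so its part in that count is a description. In WT 2 of 10 passed, Stx1a higher and Syn2 lower in cortex, where 15.2% of genes were called. The samples of cortex and hippocampus did not overlap for 9 of the 9 members other than Sv2c in KO, Syn2 below in cortex and the rest above, and for 5 of 9 in WT. Of all genes, 60.4% in KO and 56.0% in WT did not overlap. The remaining members, Sv2a, Sv2b, Syt1, Syp, Syn1, Vamp2 and Snap25, had differences of 0.05 to 0.38 in KO and -0.06 to 0.33 in WT that did not pass. Vamp2 was the largest of these, at 0.38 ± 0.16 in KO (adjusted p = 0.174) and 0.33 ± 0.16 in WT (adjusted p = 0.234). Its lower level in KO was of like size in both tissues, with a difference of 0.05 ± 0.12 between them (95% interval -0.26 to 0.37).

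**Figure D3:**
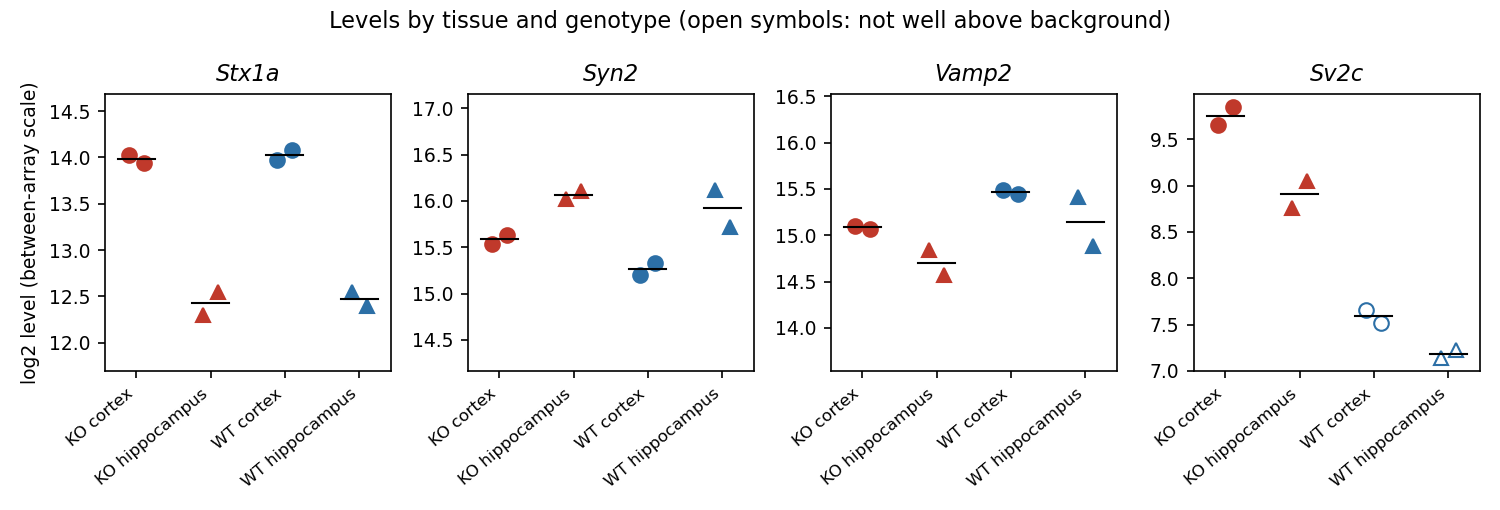
Log2 level of Stx1a, Syn2, Vamp2 and Sv2c in each sample of KO and WT cortex (circles) and hippocampus (triangles), each panel spanning the same range, with bars at the means of 2 samples. Stx1a is at 13.94 to 14.08 in cortex and 12.30 to 12.55 in hippocampus in both genotypes, while Sv2c separates KO from WT, whose open symbols mark levels not well above background.

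A wider list of 92 presynaptic genes, 91 of them tested, showed few changes. In KO over WT, mean of both tissues, 4 rose and 3 fell, against 7.18% and 3.84% of all genes, and the median was 0.04 over the list and 0.03 over all genes. The risers were Itsn1 (0.48 ± 0.06) and Amph (0.48 ± 0.07), adaptors of vesicle endocytosis, Pclo (0.31 ± 0.06), the active zone scaffold piccolo, and Snap29 (0.28 ± 0.05), a SNARE of broad use. The fallers were Syt10 (-0.50 ± 0.05), a synaptotagmin of regulated secretion, Unc13c (-0.29 ± 0.05), a priming factor, and Cplx1 (-0.25 ± 0.05), a complexin that binds the SNARE complex. Their limma adjusted p ran from 0.0233 for Syt10 to 0.0479 for Cplx1, each with SE beside the value. Each kept its sign on all 4 arrays. None of these calls held with any 1 array left out, when at most 1 of 16359 genes was called, or with every local background kept, and under median centring Cplx1 turned to 0.19.

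By role, 2 of 13 endocytosis genes rose and none fell in that comparison, where 7.18% and 3.84% of all genes were called higher and lower. Of 16 SNARE genes and regulators 1 rose and 1 fell, and of 19 active zone and priming genes 1 rose and 1 fell. Among 25 tested vesicle membrane genes 1 fell, and of 18 transporter and proton pump genes 0 passed. In cortex or hippocampus alone 0 of 91 passed, where 0.0611% and 0.0183% of all genes were called. There Syt10 had the smallest p, with -0.48 ± 0.07 in cortex (limma adjusted p = 0.0926), and with -0.52 ± 0.07 in hippocampus, where the adjusted p was 0.0707.

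**Figure D4:**
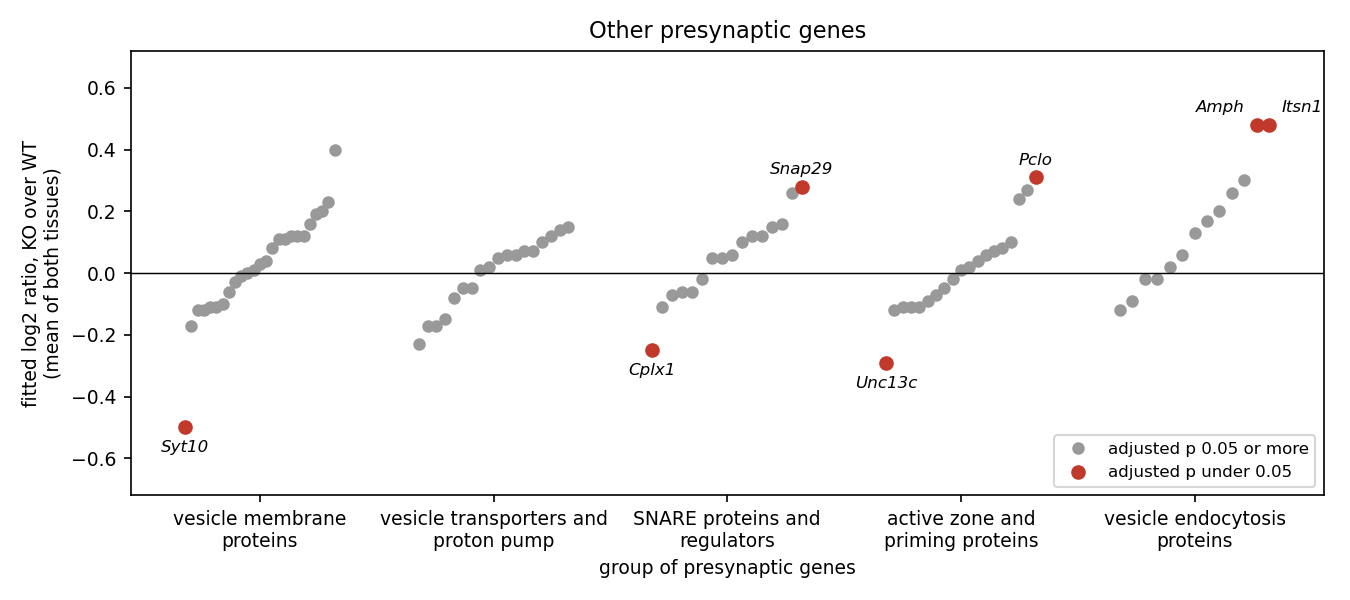
Fitted log2 ratio of KO over WT, mean of both tissues, for 91 other presynaptic genes sorted within 5 groups by role, with genes past an adjusted p of 0.05 in red and named. The groups straddle 0, with Itsn1 and Amph at 0.48 and Syt10 at -0.50 as the extremes among the named genes.

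Between tissues the wider list had 12 genes higher and 6 lower in cortex in KO, and 13 higher and 8 lower in WT, where 7.63% and 7.41% (KO) and 7.29% and 7.92% (WT) of all genes were called higher and lower. Cplx3, a complexin of ribbon synapses in the retina, was higher in cortex by 1.70 ± 0.10 in KO and 1.73 ± 0.10 in WT. Syt6 was higher by 1.40 ± 0.08 and 1.58 ± 0.08. The calcium sensors Doc2a and Doc2b went opposite ways: Doc2a was 1.29 ± 0.19 in KO and 1.45 ± 0.19 in WT, and Doc2b was -1.76 ± 0.13 in KO and -1.31 ± 0.13 in WT.

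Slc18a3, the vesicular acetylcholine transporter, was higher in cortex by 1.74 ± 0.18 in KO. In WT hippocampus it was not well above background, and WT cortex was at least 3.42-fold higher. Cholinergic neuron markers, a list that includes this gene, had sums of 1120 to 1260 in KO cortex, against 1350 to 1700 in WT cortex, and of 422 to 425 in KO hippocampus. In WT hippocampus all 3 markers were not well above background, so no sum is set against it. Ppfia2, a scaffold of the active zone, was lower in cortex by -0.95 ± 0.08 in KO and -0.90 ± 0.08 in WT. Syt17 was -0.65 ± 0.13 and -0.71 ± 0.13, and Slc18a2, the vesicular monoamine transporter, was -0.40 ± 0.08 and -0.71 ± 0.08. All of these passed the test (limma adjusted p of at most 0.0197, SE beside each value). The calls of Doc2a and Syt17 in both genotypes, and of Slc18a2 in KO, were lost without either cortex array. Slc18a2 was also lost in KO without hippocampus replicate 1, and in WT without cortex replicate 1.

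Genes near Sv2c on chromosome 13 were read as well. Of 12 other genes with a tested probe within 1 Mb of its brightest probe, 3 were higher in KO in the mean of both tissues and 0 lower, where 7.18% and 3.84% of all genes were called. Crhbp, which binds corticotropin-releasing hormone, lies 528 kb away and had ratios of 0.59 and 0.49 in cortex and 0.40 and 0.56 in hippocampus (mean 0.51 ± 0.05, limma adjusted p = 0.0252). Poc5, a centriole protein 455 kb away on the other side, had 0.31, 0.19, 0.36 and 0.23 (mean 0.27 ± 0.05, adjusted p = 0.0452). Both were above 0 on every array.

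Iqgap2, a scaffold protein 331 kb away and the nearest tested gene, had 0.22, 0.26, 0.32 and 0.20 (mean 0.25 ± 0.05, adjusted p = 0.0452). In WT cortex it was not well above background, so KO cortex was at least 1.11-fold higher there, and under median centring its mean turned to -0.21. The other 9 neighbours did not pass. Of these, Snora47 and Zbed3 had no WT array well above background, Col4a3bp had 1 of 2 in WT hippocampus, and the rest had means from -0.22 for Polk to 0.20 for F2r. The 3 calls were lost with any 1 array left out. Among the neighbours well above background in all 4 groups, the highest ratio on any array was 0.59, for Crhbp.

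**Figure D5:**
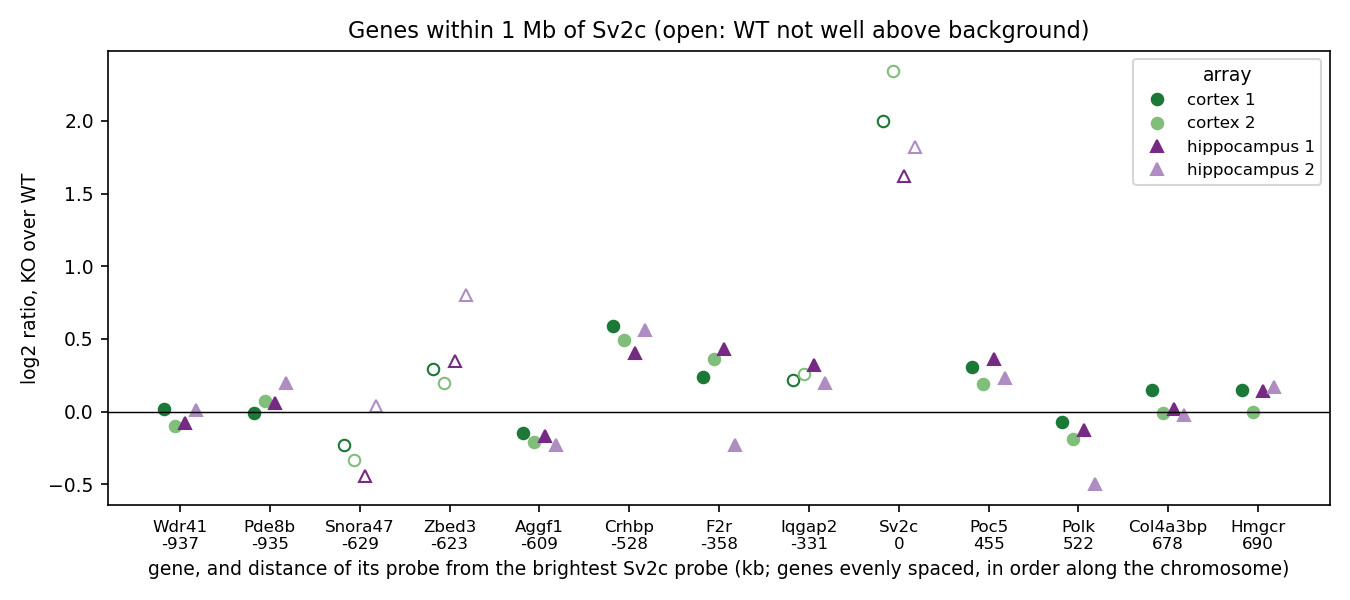
Log2 ratio of KO over WT on each array for Sv2c and the 12 other genes with a tested probe within 1 Mb, in order along chromosome 13 with the distance of each probe in kb. Open symbols mark ratios with WT well above background on neither array of that tissue, among them all of Sv2c, Snora47 and Zbed3, and the highest value among neighbours well above background in all 4 groups is 0.59 for Crhbp on the first cortex array.

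Over the 8 channels the genes whose levels were most like those of Sv2c were Ccdc65 (r = 0.99), A730081D07Rik (r = 0.985), Eya4 (r = 0.985), Npff (r = 0.984) and Trim25 (r = 0.981), the highest Pearson correlations among the genes tested. Ccdc65, a protein of motile cilia, had ratios of 0.66, 0.65, 0.51 and 0.68. Trim25, a ubiquitin ligase, had 0.44, 0.56, 0.38 and 0.47. Of the 5, Eya4 had no WT array well above background, as is the case for Sv2c itself. The genes were chosen by this correlation, which takes in the KO over WT difference, so their likeness is a description.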

How the data were processed

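The labels name KO samples as Cy5 and WT as Cy3, and the files of same-numbered KO and WT samples are identical, so each array holds a pair. The deposited scanner intensities were read, per the file headers, by Feature Extraction 10.1.1.1. The authors' deposited table holds log2 values per channel, with a background correction that no source used here gives (column medians 8.21 to 8.25). The submitters' processing notes name limma.

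In R 4.3.3 with limma 3.58.1, mean signals were corrected by normexp (offset 50), with outlying local backgrounds replaced by the array median, a step chosen after earlier counts on these data were known, and normalised by loess (span 0.3). The brightest probe stood for its gene, and genes were kept where 1 group or more had both arrays well above background. KO over WT was fitted on 4 log ratios with 1 mean per tissue (2 residual and 2.62 prior degrees of freedom). Tissues were compared on channel levels after Aquantile, with an intraspot correlation of 0.19. P-values were adjusted by Benjamini-Hochberg over all genes, with 0.05 as the threshold. A probe not well above background in a group has a bound, from the higher of its own level and the lowest level well above background. Such bounds hold under this processing alone. The fits were tested on simulated data. The alternatives were other backgrounds, scaling, filters, probe rules, fits and leaving out each array.

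The members, the gene lists and the tests were chosen with earlier results of these data known. Named from the wider list are the 4 highest and 4 lowest genes called, or, where fewer than 3 pass, those with the 3 smallest p. Further named are the 5 genes most correlated with Sv2c and the genes within 1 Mb of it. Same-numbered samples deviated together by r = 0.34 between KO and WT cortex, 0.19 between KO and WT hippocampus, 0.24 between KO cortex and KO hippocampus and -0.09 between the WT tissues. KO and WT of one number share an array, and nothing in the labels pairs the tissues.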

Additional observations from a re-analysis of the deposited data

How the results depend on the processing

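The number of the 9 members called in KO over WT, mean of both tissues, was 1 and became 0 with every local background kept, 0 with the processed signals, 0 without each array, 3 with the authors' deposited table, 3 with intensity trend and robust estimation and 7 under median centring. Median centring, which leaves array medians of 0.50 to 0.59 to subtract, gave 6 in cortex and 6 in hippocampus, where the count was 0. The strict filter left 1 member called between tissues in KO, since Sv2c was then not tested. Without each array that count was 1 to 4 in KO and 1 to 3 in WT. With the replicate number as a block, Vamp2 was -0.41 (adjusted p = 0.0257), and the block changed no call among the members. With the 8 channels as separate samples, Vamp2 had an adjusted p of 0.0641. Over all genes, KO over WT in the mean of both tissues called 1803, against 3 with every local background kept, 1130 with processed signals, 2301 with the authors' deposited table, 2229 with intensity trend and robust estimation, 10221 under median centring, 998 with the strict filter, 3239 with no filter and 0 to 1 without each array. The all-gene counts of 10 in cortex and 3 in hippocampus became 86 and 395 with the replicate block, and 7139 and 8110 under median centring. Cortex over hippocampus called 2462 genes in KO and 2488 in WT, against 625 to 1917 in KO and 706 to 1989 in WT without each array. The Sv2c ratio spanned 0.83 to 4.77 in cortex and 0.58 to 3.91 in hippocampus over the alternatives. Fits with the block, or on 3 arrays, used the intraspot correlation of all 4 arrays.

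Of 834 alternative values of the members, 39 changed sign. Beyond the members, 4 values of other named genes did so, those of Cplx1, Iqgap2 and Slc18a3 given below. Under median centring KO over WT turned to 0.20 for Sv2b and 0.22 for Stx1a in cortex, to 0.24 for Sv2b, 0.49 for Syp, 0.15 for Stx1a and 0.08 for Cplx1 in hippocampus, and to 0.22 for Sv2b, 0.19 for Stx1a, 0.19 for Cplx1 and -0.21 for Iqgap2 in the mean. It also turned the difference between the tissues' KO effects for Slc18a3 to 0.08. With every local background kept, that difference for Sv2c was -0.65, and cortex over hippocampus was -0.26 for Sv2c in KO and 0.04 for Sv2a in WT. Sv2a in WT was also 0.01 with processed signals and 0.01 under median centring, and Syt1, KO over WT in hippocampus, was -0.02 with processed signals. The causes were not tested.

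Leaving out each array in turn, KO over WT in cortex spanned -0.15 to 0.02 for Sv2b and -0.15 to 0.06 for Stx1a. In hippocampus it spanned -0.18 to 0.06 for Sv2b, -0.12 to 0.09 for Syp, -0.18 to 0.20 for Syn1, -0.10 to 0.39 for Syn2, -0.09 to 0.41 for Snap25 and -0.24 to 0.16 for Stx1a. In the mean it spanned -0.14 to 0.05 for Stx1a and -0.03 to 0.16 for Syn1. The difference of the KO effects spanned -0.13 to 0.12 for Sv2b, -0.07 to 0.31 for Syn1, -0.07 to 0.41 for Syn2, -0.07 to 0.18 for Vamp2 and -0.14 to 0.36 for Snap25. Cortex over hippocampus in WT spanned -0.05 to 0.03 for Sv2a, -0.16 to 0.09 for Syt1, -0.06 to 0.15 for Syn1 and -0.34 to 0.22 for Snap25. None of these values passed the test as reported.

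At none of its probes was Sv2c well above background in WT, so its WT level was not measured. There were 2 arrays per tissue and no dye swap, so genotype and dye cannot be told apart.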
